A study of Homo sapiens with 12 samples.

Results

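Hormone starvation was compared with complete medium in T47D cells, an established human breast cancer line that carries the estrogen receptor. The comparison used 4 of the 12 libraries of the series, 2 from starved cells and 2 from cells in complete medium (RPMI with fetal bovine serum), all given the vehicle, 0.1% DMSO by volume, for 1 h. The measured features were the 23375 of 59410 genes that passed a low-count filter. The assay was PRO-seq, a nuclear run-on that captures RNA still being made by engaged RNA polymerase, so a count reads transcription and not the store of finished RNA. Both groups carry a 3-day culture time, and what the starvation medium contained is not stated in the sources used here. The other 8 libraries, 2 per group, came from starved cells given 1 nM estradiol for 1 h and from cells in complete medium given 100 nM fulvestrant, raloxifene or tamoxifen for 1 h. All cells are 1 line, and whether the libraries of 1 group came from different cultures is not stated. The p-values therefore reflect spread between these libraries alone, which may be technical.

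Serum supplies cells with steroid hormones, lipoproteins and growth factors. Estradiol binds estrogen receptor alpha, encoded by ESR1, and the receptor then raises transcription of genes that drive growth and division of luminal breast cells. Genes of DNA replication and of mitosis are known to be held down in resting cells and released by E2F, B-MYB and FOXM1 as cells cycle. Cholesterol genes are known to be raised by the transcription factor SREBP-2 when sterols run short.

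The starved libraries held 7377576 and 6790454 counts and the complete-medium libraries 6344474 and 4981796. The mitochondrial share of counts was 0.167% and 0.185% in starved cells and 0.198% and 0.251% in complete medium. All 10 luminal markers were transcribed in all 4 libraries; SPDEF was higher in starved cells, ESR1, PGR and KRT8 were lower, and GATA3, FOXA1, KRT18, KRT19, EPCAM and CDH1 did not pass the threshold. The 8 basal and mesenchymal markers summed to 45.3 and 48.2 CPM, counts scaled to library size, in starved cells and to 37.2 and 43.2 in complete medium, and KRT5 had 1 count in all. The 10 stromal, endothelial and blood markers summed to 33.4 and 30.1 CPM in starved cells and to 24.9 and 25.3 in complete medium, with CD3D and HBB at 0 in all 4 libraries. In a longer list of basal and mesenchymal genes 3 of 20 were higher in starved cells, FN1, EGFR and TRIM29. The part of these genes in the results was not tested. In libraries made from many cells, fewer cells in a state and less transcription per cell cannot be told apart.

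Starvation went with changes in 4386 genes, which is 18.8% of those tested (quasi-likelihood test of edgeR, p under 0.05 after Benjamini-Hochberg adjustment). Of these, 2126 genes (9.1%) were higher and 2260 (9.67%) lower in starved cells. Leaving out 1 vehicle library gave 2739 calls without starved library 3, 2735 without starved library 4, 2555 without complete-medium library 3 and 2875 without complete-medium library 4. Most changes were small: the middle 50% of called genes had an absolute log2 fold change between 0.347 and 0.765, with a median of 0.495. At least 2-fold changes were found in 367 genes that were higher (1.57%) and 279 that were lower (1.19%). The CPM of the media did not overlap in 58.7% of tested genes, so absence of overlap alone says little with 2 libraries a group. Among protein-coding genes 10.9% were higher and 12.5% lower, and among long non-coding RNAs 8.34% and 6.12%. The protein-coding shares are the background for the counts of each gene list below. Called genes were longer and more deeply counted than the rest, with a median length of 56145 bases for higher, 44642 for lower and 31320.5 for genes not called, and median counts of 265.6, 334.25 and 72.25.

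**Figure D1:**
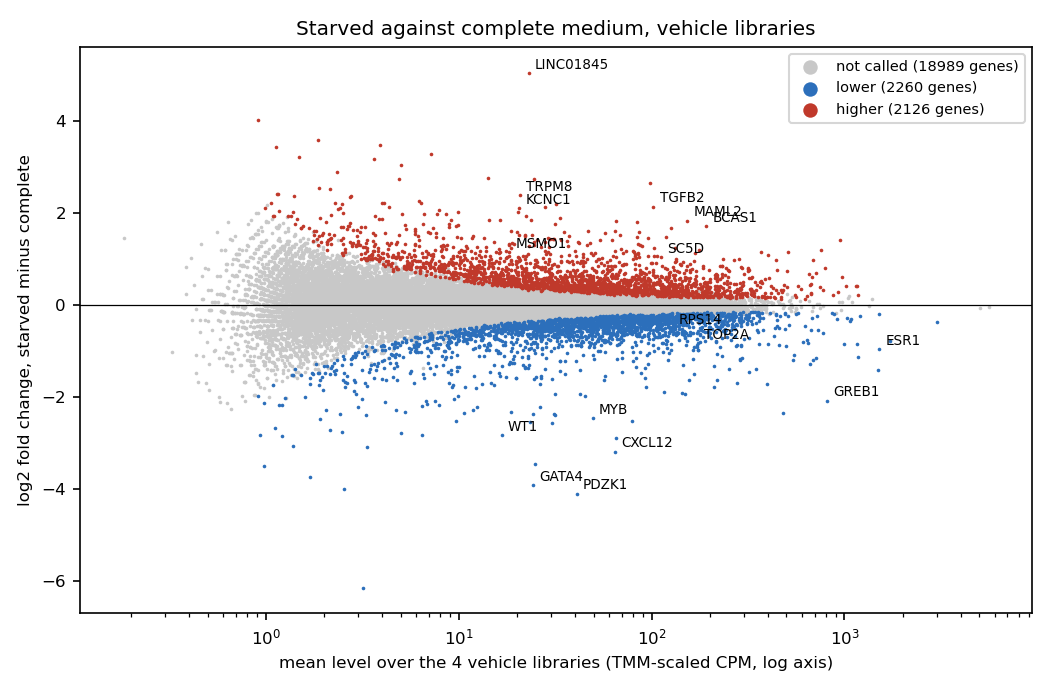
Log2 fold change of starved minus complete medium (vertical axis) against the mean level over the 4 vehicle libraries in TMM-scaled CPM (log axis), 1 point per tested gene. Red points are the 2126 higher genes, blue points the 2260 lower genes and grey points genes that did not pass the threshold, which take up the wide band at low levels.

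The media could also be compared in the 8 libraries that the vehicle comparison does not use, as estradiol-treated starved cells against the mean of the 3 drug groups in complete medium. In this second contrast the ligands oppose each other, with an agonist in the starved arm and antagonists in the complete arm, so it is read gene by gene. It called 5739 genes (24.6%), 2969 higher (12.7%) and 2770 lower (11.9%) in starved cells. Which direction had more calls turned with the scaling: without TMM 2622 were higher and 3184 lower here, and in vehicle 2357 were higher and 2037 lower. Of the 2260 genes lower in vehicle, 1165 were lower in the second contrast too, which is 51.5% of the first list and 42.1% of the second, while 277 were higher there. The count of 1165 became 740, 741 and 707 without starved library 3, starved library 4 and complete-medium library 3. Of the 2126 genes higher in vehicle, 1129 were higher in the second contrast, which is 53.1% of the first list and 38% of the second, while 83 were lower there. The groups of genes described next fell on different sides of this division.

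**Figure D2:**
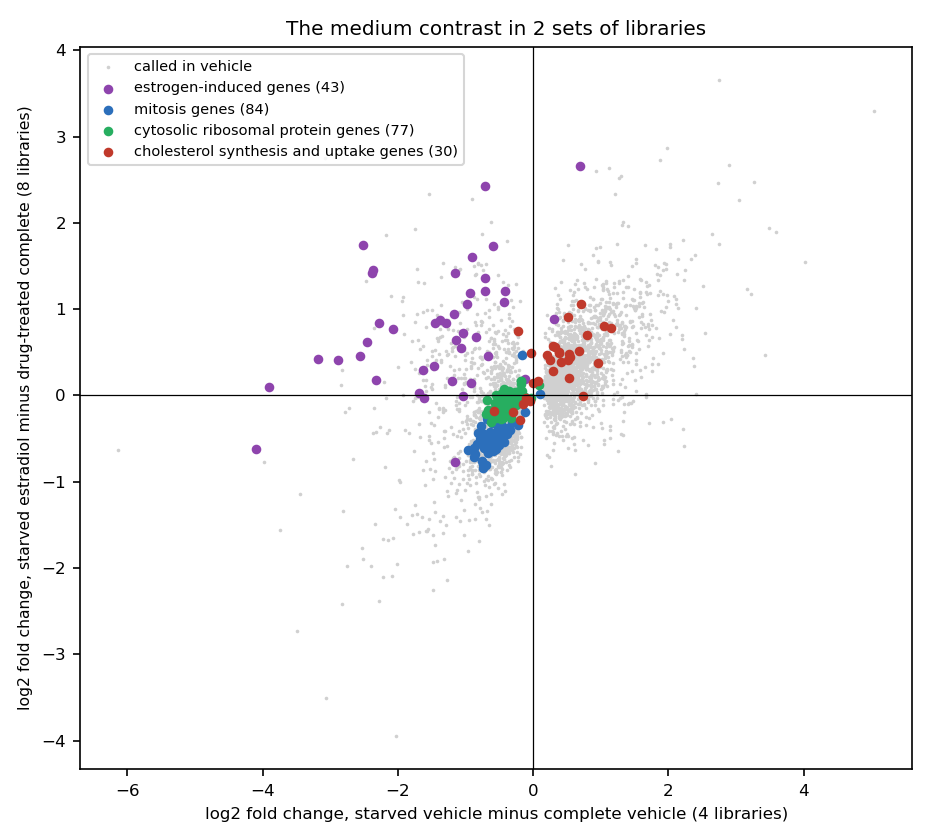
Log2 fold change of the vehicle comparison (horizontal axis) against that of the second contrast, estradiol-treated starved cells minus drug-treated cells in complete medium (vertical axis), for the genes called in vehicle (grey) and for the members of 4 lists (colours). Mitosis genes lie in the lower left, cholesterol genes mostly in the upper right, ribosomal protein genes near 0 on the vertical axis, and estrogen-induced genes mostly in the upper left.

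Estrogen-induced genes were far lower in starved cells. This list, like all lists below, was chosen with earlier results of these data known, so its counts are a description. Of 43 tested members of that list, 38 were lower, 2 were higher and 3 did not pass, with a median log2 fold change of -1.16 against 0.01 over all tested genes. PDZK1 (ENSG00000174827, chromosome 1, 145670852 to 145707400, GRCh38) encodes a scaffold protein and stood at 4.6 and 4.39 CPM in the starved libraries and at 75.9 and 78.4 CPM in complete medium. Its log2 fold change was -4.09 with a fitted standard error of 0.16 (adjusted p = 3e-13, edgeR), and the media were far apart with both libraries of each close together. GREB1, an estrogen receptor cofactor gene (ENSG00000196208, chromosome 2, 11482888 to 11642788), was at 329 and 294 CPM in starved cells and at 1350 and 1270 CPM in complete medium, which is a log2 fold change of -2.07 ± 0.055 (adjusted p = 1.4e-15). CXCL12, a chemokine gene, was at 13 and 12.7 CPM against 115 and 119 CPM. GATA4, a transcription factor gene, was at 2.3 and 3.8 CPM against 47.9 and 43 CPM. These members differed by much more than the spread within either medium. PDZK1, CXCL12 and GATA4 are among the 15 genes that fell most without overlap, so their wide gap follows in part from the choice. TFF1, a secreted trefoil factor and a usual marker of estrogen action, did not pass the low-count filter, with 1 and 3 counts in starved cells and 6 and 7 in complete medium.

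In the second contrast 35 of the same 43 estrogen-induced genes were higher and 2 were lower, with a median of 0.73. IGFBP4, whose product binds and restrains insulin-like growth factors, changed by -2.52 in vehicle, at 26 and 21.2 CPM against 146 and 124 CPM, and by 1.74 in the second contrast. In the 6 drug-treated libraries IGFBP4 ran from 35.8 through a median of 77.8 to 100 CPM, and in the estradiol libraries it was at 227 and 210 CPM. The 2 members lower in both contrasts were PDZK1 and RERG, a Ras-like GTPase gene. PDZK1 was at 28.2 and 27.6 CPM after 1 h of estradiol and between 20.4 and 70.5 CPM, with a median of 51.8, in the drug-treated libraries. AREG, an EGF receptor ligand gene, was lower in vehicle by 1.61 on the log2 scale and had -0.03 in the second contrast. HSPB8, a small heat shock protein gene on the same list, was higher in both, by 0.69 and 2.65.

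The receptor's own gene was lower too. ESR1 (ENSG00000091831, chromosome 6, 151656672 to 152129619) was at 1040 and 1020 CPM in starved cells and at 2000 and 1990 CPM in complete medium, which is a log2 fold change of -0.96 ± 0.04 (adjusted p = 6.4e-13). In the second contrast it was also lower, by 0.38, with 1360 and 1420 CPM in the estradiol libraries and 1690 to 1920 CPM in the drug-treated ones. PGR, the progesterone receptor gene, changed by -1.13 ± 0.059 in vehicle and by 0.64 in the second contrast. RARA, a retinoic acid receptor gene, changed by -0.71 ± 0.062 in vehicle and by 1.21 in the second contrast. In vehicle NR3C1, the glucocorticoid receptor gene, was higher by 0.74 ± 0.096. Over the 37 tested nuclear receptor genes 6 were higher and 6 lower, with a median of 0.02.

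The pioneer factor genes FOXA1 and GATA3, whose products open chromatin for the receptor, did not pass the threshold, with log2 fold changes of 0.06 and 0.06. Among luminal transcription factor genes 9 of 33 were higher and 9 lower. MYB fell by 2.45 on the log2 scale, RUNX1 by 1.09 and GRHL2 by 0.83, while the epithelial factor gene ELF3 rose by 0.76 and SOX13 by 0.86. Estrogen receptor cofactor genes gave 2 higher and 5 lower of 24. Of these, NRIP1, a corepressor gene, fell by 1.07 and NCOA3, a coactivator gene, rose by 0.32. In the second contrast NRIP1 changed by 0.55 and NCOA3 by -0.23, each against its direction in vehicle.

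Genes listed as repressed by estrogen were mostly higher in starved cells: 16 of 21 rose, 1 fell and 4 did not pass, with a median of 0.49. BCAS1, an amplified gene of breast cancers, was at 286 and 303 CPM in starved cells and at 88.6 and 90.6 CPM in complete medium, which is a log2 fold change of 1.72 ± 0.06. The transcription factor gene ZNF608 rose by 1.58 ± 0.088, and the interleukin-1 receptor gene IL1R1 by 1.34 ± 0.096. BCL6, a repressor gene, was the member that fell, by 0.62. In the second contrast 6 members were higher and 7 lower. BCAS1 was among the 5 higher in both, with 211 and 211 CPM in the estradiol libraries against 82.2 to 91.1 CPM in the drug-treated ones.

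Targets of other steroid receptors gave 8 higher and 2 lower of 19. The 2 that fell, FKBP5, a chaperone gene raised by glucocorticoid, progestin and androgen, and ZBTB16, a transcription factor gene raised by the same hormones, changed by -0.75 ± 0.059 and -1.97 ± 0.19. Both were lower in the second contrast as well. FKBP5 was at 190 and 196 CPM in starved vehicle, 173 and 176 CPM in starved estradiol, 323 and 329 CPM in complete vehicle and 300 to 343 CPM in the drug-treated libraries, so all 8 libraries in complete medium lay above all 4 starved ones. CDC42EP3, a gene of the actin regulators on the same list, rose by 1.52 ± 0.089 in vehicle and TSC22D3 by 0.67 ± 0.15. PER1, also on the list, did not pass, at 0.06. In the second contrast 7 members of the list were higher and 2 lower.

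**Figure D3:**
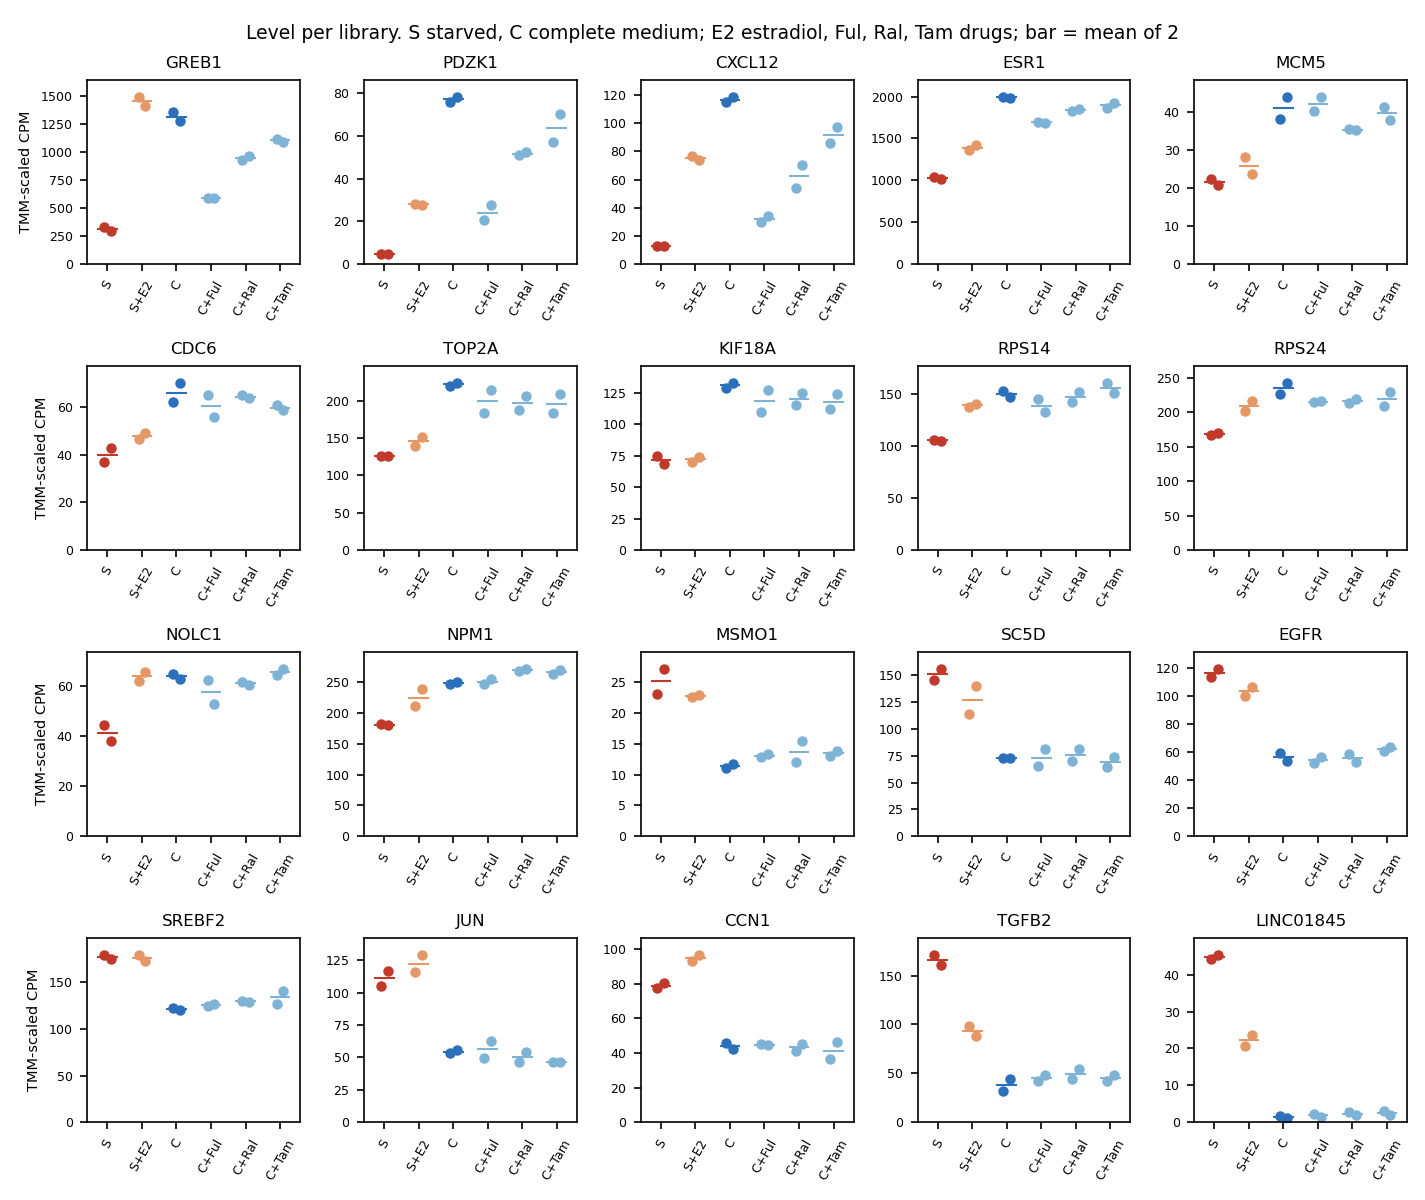
Level of 20 genes in each of the 12 libraries (points, TMM-scaled CPM on a linear axis from 0) by group, with a bar at the mean of 2. GREB1 follows the ligand as well as the medium. KIF18A, SC5D and TGFB2 hold all starved libraries on one side of all libraries in complete medium. TGFB2 also had a log2 fold change of -0.83 with estradiol over starved vehicle.

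Genes of the cell cycle formed the broadest lower group. DNA replication genes gave 44 lower and 0 higher of 57, with a median of -0.49. MCM5, a subunit of the replicative helicase (ENSG00000100297, chromosome 22, 35400140 to 35455031), was at 22.2 and 20.6 CPM in starved cells and at 38 and 43.8 CPM in complete medium, which is a log2 fold change of -0.92 ± 0.12 (adjusted p = 5.7e-06). The helicase subunit MCM2 changed by -0.69, the helicase loader CDC6 by -0.73, CDC45 by -0.84, and the sliding clamp PCNA by -0.33. Nucleotide synthesis genes gave 19 lower and 1 higher of 32, with the ribonucleotide reductase subunit RRM2 at -0.53 and the thymidylate synthase gene TYMS at -0.67. Homologous recombination and Fanconi genes gave 31 lower and 0 higher of 37, with a median of -0.51. Among them were the repair genes BRCA1 at -0.59, BARD1 at -0.82 and POLQ at -0.81.

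Mitosis genes gave 76 lower and 0 higher of 84, with a median of -0.58. KIF18A, a kinesin that sets chromosome position on the spindle (ENSG00000121621, chromosome 11, 28020619 to 28108156), was at 74.6 and 68.6 CPM in starved cells and at 129 and 133 CPM in complete medium, which is a log2 fold change of -0.87 ± 0.08 (adjusted p = 8.2e-08). TOP2A, the topoisomerase that untangles sister chromosomes, was at 126 and 126 CPM against 220 and 224 CPM. The mitotic kinase genes PLK1 and AURKA changed by -0.39 and -0.50, and the condensin subunit SMC4 by -0.62. The middle 50% of mitosis genes lay between -0.672 and -0.498.

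In the second contrast 74 mitosis genes were lower and 1 higher, with a median of -0.50, and 72 were lower in both contrasts. The counts lower in both were 39 of 57 for DNA replication and 28 of 37 for homologous recombination and Fanconi genes. KIF18A was at 70 and 74.3 CPM in the estradiol libraries and between 110 and 127 CPM, with a median of 120, in the drug-treated ones, so all starved libraries lay below all libraries in complete medium. The median log2 fold change of mitosis genes with 1 h of estradiol over starved vehicle was 0, a comparison that shares the starved vehicle libraries.

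Regulators of division moved in both directions. Among 20 E2F and RB family genes 12 were lower and 1 higher, with E2F7 at -0.78, LIN9 at -0.66, FOXM1 at -0.67 and E2F1 at -0.46. Among 30 cyclin, CDK and CDK inhibitor genes 12 were lower and 5 higher. CCND1, the cyclin D1 gene, was at 64.5 and 62.4 CPM in starved cells and 138 and 121 CPM in complete medium, which is a log2 fold change of -1.04 ± 0.11. CDKN2B, which encodes the CDK4 and CDK6 inhibitor p15, rose from 10 and 9.98 CPM in complete medium to 31.3 and 28.6 CPM in starved cells, a log2 fold change of 1.58 ± 0.15, and CDK6 rose by 1.08 ± 0.093. Both were higher in the second contrast, by 1.35 and 0.89. The CDK inhibitor genes CDKN1A and CDKN1B did not pass, at -0.19 and -0.10. Replication-dependent histone genes gave 2 lower and 1 higher of 52, with a median of -0.10.

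The promoters of these groups were searched for short motifs, since their members moved together. A promoter is here the 300 bases from 250 before to 50 after the RefSeq start (assembly GRCh38.p14), found for 13723 tested genes, and each motif was looked for on both strands. No motif searched contains another, though matches can overlap in a promoter. The core of the cell cycle homology region, TTTGAA, which the DREAM and B-MYB complexes are known to bind, was in 64.8% of 71 mitosis promoters, 14.2% of promoters of lower genes, 9.84% of higher genes and 10.8% of all tested genes. The E2F motif TTTNGCGC was in 35.4% of 48 DNA replication promoters, 4.77% of lower, 1.93% of higher and 2.81% of all tested genes. Among genes changed at least 2-fold the order was otherwise: TTTGAA was in 7.8% of 141 lower and 13.8% of 218 higher promoters, and the E2F motif in 0 of the lower and 1 of the higher ones. These shares describe the letters in a window and no binding was measured. Mitosis promoters are shown first, as 60-base windows 5′ to 3′ on the gene's strand with TTTGAA or its reverse complement in capitals, for the 4 members with the lowest adjusted p whose match lies upstream of the start.
KIF18A (chr11:28108157-28108216, minus strand): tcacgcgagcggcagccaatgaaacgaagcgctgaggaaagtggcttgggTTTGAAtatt
KIF15 (chr3:44761732-44761791, plus strand): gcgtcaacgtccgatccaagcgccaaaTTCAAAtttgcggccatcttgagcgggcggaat
SMC4 (chr3:160399548-160399607, plus strand): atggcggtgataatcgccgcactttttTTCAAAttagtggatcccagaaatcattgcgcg
TOP2A (chr17:40418015-40418074, minus strand): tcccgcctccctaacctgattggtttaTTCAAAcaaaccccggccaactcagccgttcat

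DNA replication promoters are shown in the same way, with TTTNGCGC or its reverse complement in capitals. The match begins 53 bases before the start in POLA2 and 137 before it in POLA1, both of which encode subunits of DNA polymerase alpha. CDT1 encodes a helicase loading factor and POLE2 a subunit of DNA polymerase epsilon. The 4 genes changed by -0.56, -0.54, -0.96 and -0.66 in the order shown.
POLA2 (chr11:65261883-65261942, plus strand): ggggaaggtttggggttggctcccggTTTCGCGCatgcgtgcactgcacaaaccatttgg
POLA1 (chrX:24693755-24693814, plus strand): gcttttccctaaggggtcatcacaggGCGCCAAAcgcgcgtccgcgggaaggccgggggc
CDT1 (chr16:88803550-88803609, plus strand): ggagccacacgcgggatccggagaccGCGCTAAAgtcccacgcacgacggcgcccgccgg
POLE2 (chr14:49688262-49688321, minus strand): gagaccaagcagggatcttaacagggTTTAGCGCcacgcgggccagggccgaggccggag

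The full palindromic estrogen response element was in 0.062% of promoters of lower genes, in 0.0583% of all tested genes and in none of 32 promoters of estrogen-induced genes. That says only that these letters were not in these windows.

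**Figure D4:**
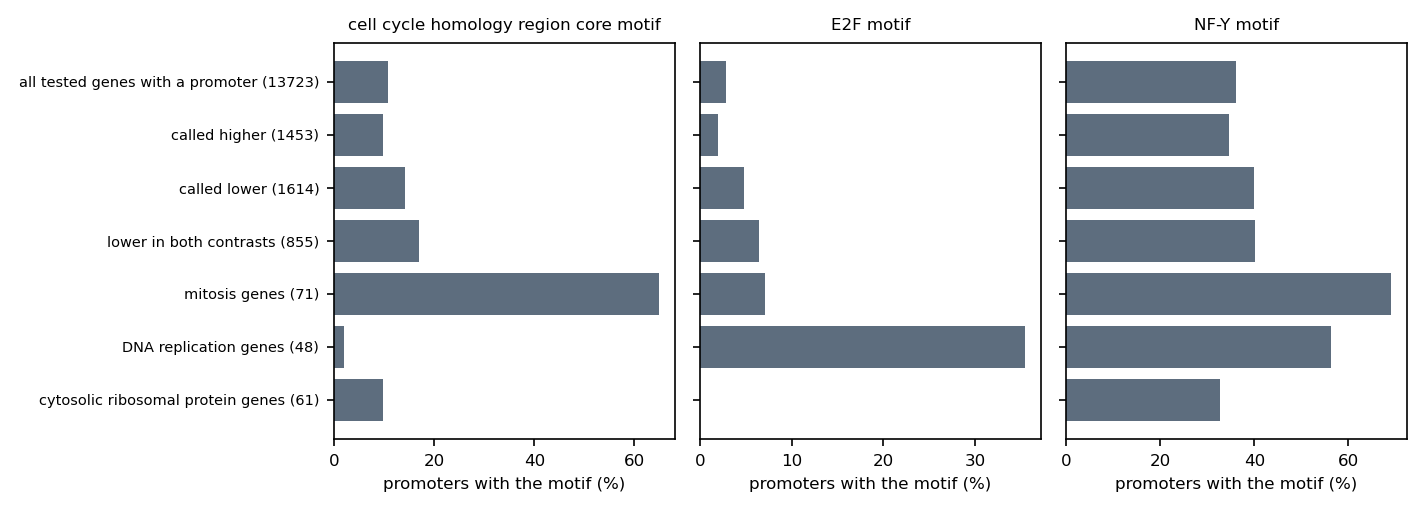
Share of promoters (percent, horizontal axes) that hold the cell cycle homology region core, the E2F motif or the NF-Y motif, by set of genes (number of promoters in brackets). The mitosis set stands at 64.8% for the first motif and the DNA replication set at 35.4% for the second, against 10.8% and 2.81% of all tested genes.

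Genes for making ribosomes were lower in starved cells, and most of them were not lower in the second contrast. Cytosolic ribosomal protein genes gave 59 lower and 0 higher of 77, with a median of -0.42. RPS14, a protein of the small subunit (ENSG00000164587, chromosome 5, 150442635 to 150449739), was at 106 and 105 CPM in starved cells and at 153 and 147 CPM in complete medium, which is a log2 fold change of -0.51 ± 0.065 (adjusted p = 7.3e-06). RPS24 changed by -0.48 and RPL32 by -0.55. The count of 59 became 34 without the second starved library (number 4) and 37 without the first complete-medium library (number 3). Counts of ribosomal protein genes can be shared with processed copies elsewhere in the genome, and how such reads were counted is not stated in the sources used here.

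Ribosome biogenesis genes gave 32 lower and 0 higher of 70, with a median of -0.30. The nucleolar genes NOLC1, NPM1 and NCL changed by -0.63, -0.46 and -0.52, and the fibrillarin gene FBL, at 12.5 and 14.5 CPM against 14.9 and 14.1 CPM, did not pass. The count of 32 became 20 without starved library 4 or complete-medium library 3, and 19 without complete-medium library 4. Translation factor genes gave 17 lower and 0 higher of 44, with the initiation factor genes EIF4A1 at -0.57 and EIF4B at -0.44. MYC, a transcription factor gene known to drive ribosome production, was at 57.2 and 45.5 CPM against 142 and 124 CPM. Its log2 fold change was -1.37 ± 0.098 in vehicle and 0.88 in the second contrast. Mitochondrial ribosome genes gave 4 lower and 0 higher of 77, and oxidative phosphorylation genes 2 lower and 1 higher of 75. Both shares lie below the 9.67% of all tested genes that were lower.

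The median of ribosomal protein genes in the second contrast was -0.09, with 7 of 77 lower and 0 higher. RPS14 was at 138 and 141 CPM in the estradiol libraries and between 133 and 161 CPM in the drug-treated ones, which overlap. The E-box CACGTG, a motif that MYC is known to bind, was in 37.7% of 61 ribosome biogenesis promoters, 4.92% of 61 ribosomal protein promoters, 13.1% of lower genes and 9.39% of all tested genes.

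Cholesterol genes rose in starved cells. Of 30 tested genes of cholesterol synthesis and uptake, 19 were higher, 1 was lower and 10 did not pass, with a median of 0.36. SC5D, a late enzyme of the pathway (ENSG00000109929, chromosome 11, 121292771 to 121313410), was at 146 and 156 CPM in starved cells and at 73.3 and 72.9 CPM in complete medium, which is a log2 fold change of 1.04 ± 0.1 (adjusted p = 2.1e-07). MSMO1, a sterol demethylation enzyme gene, was at 23.2 and 27.2 CPM against 11 and 11.8 CPM, a change of 1.15 ± 0.14. SREBF2, which encodes SREBP-2, rose by 0.55 ± 0.063. The member that fell was TMEM97, by 0.58, named after its value was seen. The count of 19 became 9 without starved library 4, 11 without complete-medium library 3 and 10 with DESeq2.

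The second contrast had 18 cholesterol genes higher and 0 lower, with a median of 0.43, and 16 were higher in both. SC5D was at 114 and 140 CPM in the estradiol libraries and between 64.4 and 81.4 CPM in the drug-treated ones, so starved libraries again lay above all libraries in complete medium. The sterol regulatory element TCACNCCAC was in 4.17% of 24 promoters of the list and 1.07% of all tested genes, and CCAAT, the motif of NF-Y, a partner of SREBP-2, in 18 of 24 and in 4936 of 13723. It was also frequent in other lists, with 24 of 31 unfolded protein response promoters and 49 of 71 mitosis promoters. The one member with the sterol element was SREBF2 itself, shown with the element in capitals.
SREBF2 (chr22:41832947-41833006, plus strand): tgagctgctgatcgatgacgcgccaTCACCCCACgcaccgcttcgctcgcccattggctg

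Other lipid genes changed less evenly. Fatty acid synthesis genes gave 4 higher and 3 lower of 30, with the synthase FASN at 0.33 and the carboxylases ACACA and ACACB at 0.30 and -0.50. Fatty acid oxidation and lipid droplet genes gave 8 higher and 1 lower of 31. Of these, PNPLA2, the main triglyceride lipase gene, rose by 0.82 ± 0.13 and PLIN1, a lipid droplet coat gene, by 1.32 ± 0.29, and both were higher in the second contrast. Liver X receptor targets gave 1 higher and 1 lower of 11, and the cholesterol exporter gene ABCA1 did not pass, at -0.12 ± 0.18. In glycolysis and hypoxia 5 genes rose and 5 fell of 43, beside 10.9% higher and 12.5% lower of all protein-coding genes. EPAS1, which encodes HIF-2 alpha, rose by 1.13 ± 0.061 and PFKFB3, a regulator of glycolysis, fell by 0.83.

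Growth factor genes changed at the level of single ligands and receptors. TGFB2, a TGF-beta ligand (ENSG00000092969, chromosome 1, 218345336 to 218444619), was at 171 and 161 CPM in starved cells and at 32.3 and 44 CPM in complete medium, which is a log2 fold change of 2.14 ± 0.11 (adjusted p = 1.7e-11). TGFB1 and TGFB3 did not pass. It was also higher in the second contrast, by 1.01, at 98.1 and 88 CPM with estradiol and 42.3 to 54.2 CPM with the drugs. BAMBI, a decoy receptor of the family, rose by 1.22 ± 0.098 and the ligand gene BMP4 fell by 0.77. The TGF-beta and BMP list gave 10 higher and 3 lower of 43.

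The ERBB receptors moved apart. EGFR was at 113 and 119 CPM in starved cells against 59.5 and 53.2 CPM, a log2 fold change of 1.03 ± 0.08, and ERBB2 and ERBB3 rose by 0.71 and 0.25. ERBB4 fell by 0.84, from 1260 and 1310 CPM in complete medium to 722 and 708 CPM in starved cells. EGFR and ERBB2 were higher in the second contrast too, by 0.85 and 0.18, ERBB4 was lower, by 0.69, and ERBB3 was lower, by 0.20, against its direction in vehicle. In the insulin-like growth factor axis 7 genes fell and 2 rose of 24. The receptor gene IGF1R fell by 0.75 and the adaptor gene IRS1 by 0.44, while PIK3R3, a regulatory subunit of PI3-kinase, rose by 0.86. Prolactin and JAK-STAT genes gave 6 higher and 5 lower of 34, with a median of 0.02, and 2 were higher and 0 lower in both contrasts. In vehicle JAK1 fell by 1.39 and IL6ST, the shared receptor subunit of the interleukin-6 family, by 0.98. The receptor gene IL4R rose by 1.44 and STAT3 by 0.49. PRLR, the prolactin receptor gene, was at 4940 and 4940 CPM against 5090 and 5310 CPM and did not pass.

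Hippo pathway genes and targets of its effector YAP gave 12 higher and 0 lower of 28, with a median of 0.32. AMOTL1, an angiomotin that holds YAP at cell junctions, was at 49 and 49.3 CPM in starved cells and 18.1 and 18.9 CPM in complete medium, which is a log2 fold change of 1.41 ± 0.11. CCN1, a secreted matrix protein and YAP target, was at 77.5 and 80.4 CPM against 45.8 and 42.2 CPM. VGLL1, a cofactor of the TEAD factors, rose by 3.04 ± 0.38 from 1.27 and 0.815 CPM to 8.26 and 9.65 CPM. YAP1 did not pass, at -0.15 ± 0.053. In the second contrast 12 members were higher and 4 lower, with 7 higher in both.

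Immediate-early genes gave 13 higher and 2 lower of 33, with a median of 0.19. JUN, a subunit of the AP-1 factor, was at 105 and 117 CPM in starved cells and at 53.4 and 55.4 CPM in complete medium, which is a log2 fold change of 1.02 ± 0.097, and ZFP36L2, which encodes an RNA-decay factor, rose by 0.99 ± 0.12. FOS and EGR1 did not pass: FOS was at 8.53 and 10.4 CPM against 10.3 and 17.3 CPM, and EGR1 at 4.33 and 5.99 CPM against 5.41 and 5.7 CPM, both with overlap. All 13 that rose were higher in the second contrast as well. The count of 13 became 8 without complete-medium library 3 and 7 with DESeq2. MAPK feedback genes gave 6 higher and 5 lower of 24. The phosphatase gene DUSP4 fell by 1.98 and the Sprouty gene SPRY1 rose by 1.51.

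WNT pathway genes gave 9 higher and 1 lower of 34. In the second contrast 3 were higher and 7 lower, and 1 was higher in both. RNF43, which removes WNT receptors, rose by 0.94 ± 0.097 and its homolog ZNRF3 fell by 0.62, while the usual reporter genes AXIN2, LEF1 and TCF7 did not pass. Notch pathway genes gave 4 higher and 5 lower of 23. MAML2, a Notch coactivator gene, was at 239 and 239 CPM in starved cells against 62.5 and 72.3 CPM in complete medium, which is a log2 fold change of 1.84 ± 0.068. The Notch target genes HES1 and HEY2 fell by 0.83 and 2.35.

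**Figure D5:**
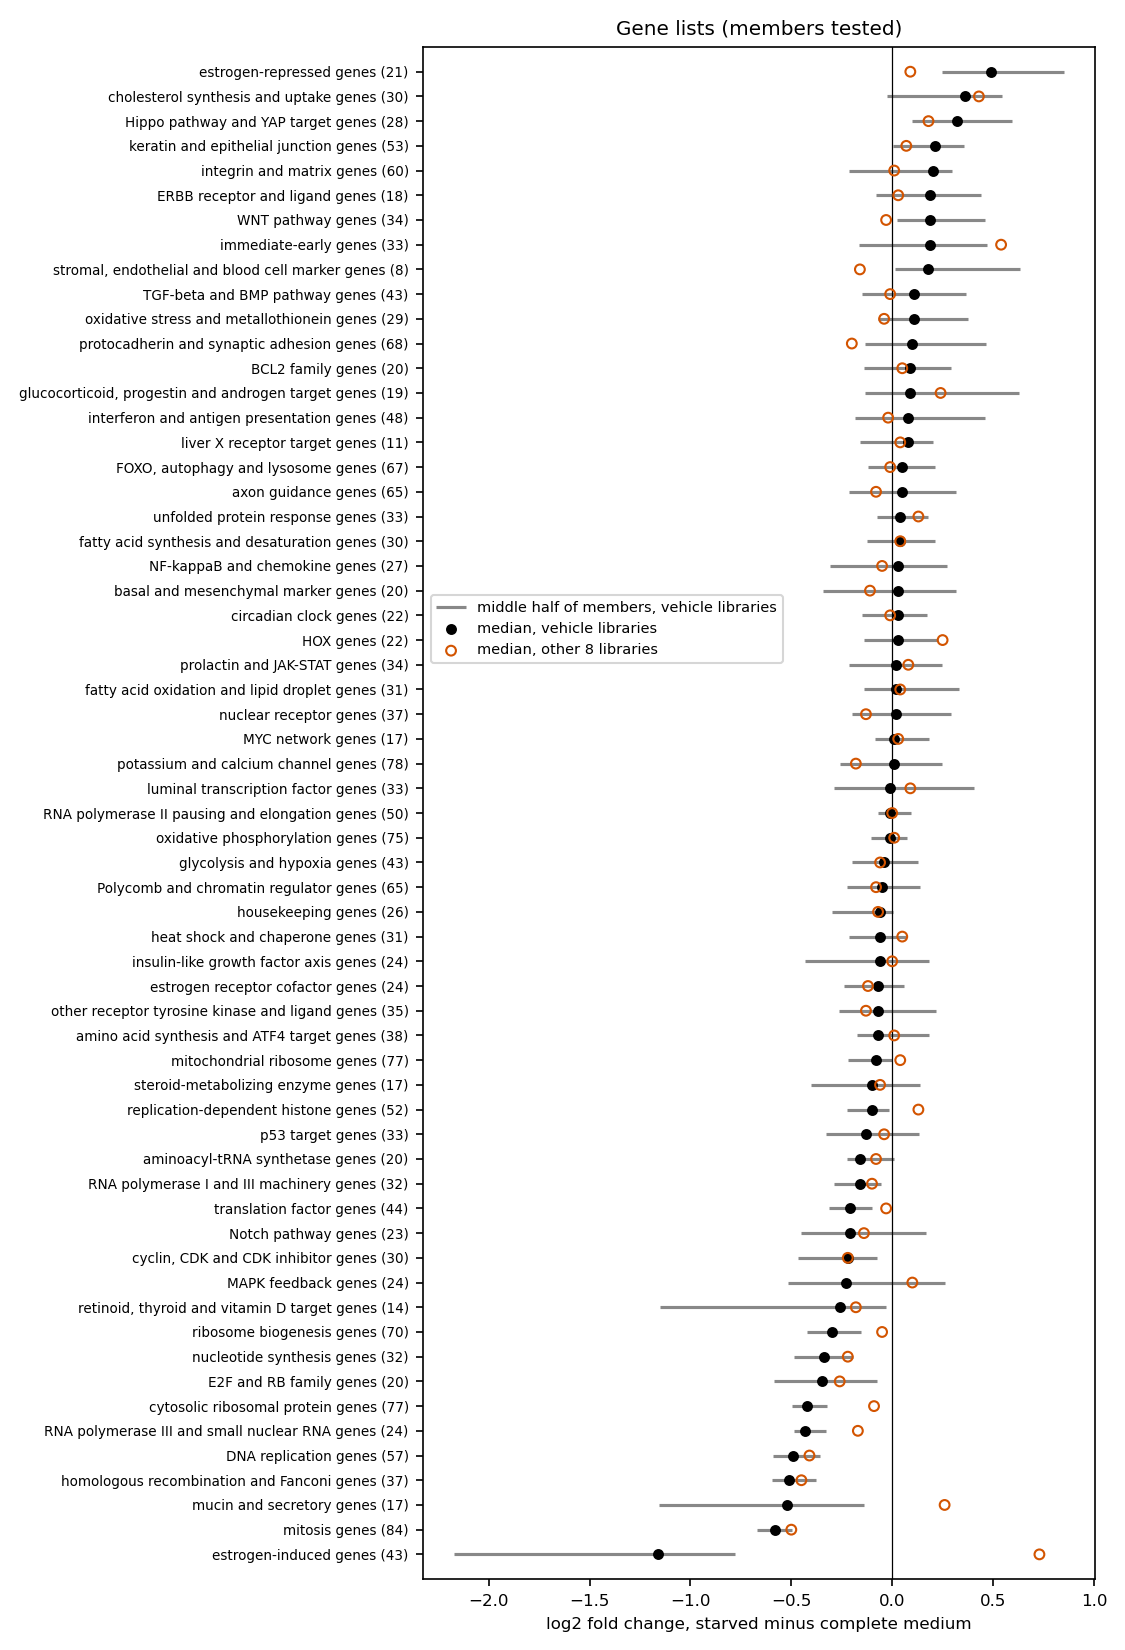
Median log2 fold change of each gene list in the vehicle libraries (black points), the middle 50% of its members (grey lines) and its median in the second contrast (open circles), with the number of tested members in brackets. The cell cycle lists keep close medians in both contrasts, and the estrogen-induced list lies at -1.16 and 0.73.

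Stress and immune lists are read against all tested genes, of which 18.8% were called, and against protein-coding genes. Of the latter, 10.9% were higher and 12.5% lower in starved cells. The unfolded protein response gave 3 higher and 1 lower of 33, and the member that fell was XBP1, at -0.66, which is also on the estrogen-induced list. Heat shock and chaperone genes gave 5 higher and 7 lower of 31, with HSPB1, a small heat shock protein gene, up by 1.04 ± 0.12 and the steroid receptor cochaperone gene FKBP4 down to 79.4 and 85.5 CPM from 160 and 155 CPM. Oxidative stress genes gave 7 higher and 1 lower of 29. The regulator gene NFE2L2 rose by 0.45, the thioredoxin reductase gene TXNRD1 by 0.74 and catalase, CAT, by 0.60. Among p53 targets 8 fell and 3 rose of 33. MDM2 changed by -0.42 and TP53I3 by -0.99. The BCL2 family gave 5 higher and 1 lower of 20, where the pro-death gene BMF rose by 0.65 and BCL2L11, which encodes BIM, fell by 0.46.

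Interferon and antigen presentation genes gave 10 higher and 0 lower of 48, with a median of 0.08. Among them STAT2 rose by 0.43, IRF1 by 0.37 and OAS2 by 0.73. That count became 1 with DESeq2, and 4, 2, 3 and 1 without starved library 3, starved library 4, complete-medium library 3 and complete-medium library 4.

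Among epithelial structure genes, those of keratins and junctions were higher more often than lower in vehicle. They gave 18 higher and 6 lower of 53, with a median of 0.21. In the second contrast 17 were higher and 11 lower, with a median of 0.07, and 7 were higher and 4 lower in both. The keratin genes KRT86, KRT80 and KRT7 rose by 1.47 ± 0.07, 1.00 ± 0.07 and 0.78 ± 0.083. KRT86 was at 174 and 175 CPM in starved cells against 64.4 and 61.3 CPM, although nearby keratin genes are close copies. The luminal keratin gene KRT8 fell by 0.31, and KRT18 and CDH1 did not pass. The count of 18 became 11 with DESeq2, without starved library 4 and without complete-medium library 4. Mucin and secretory genes gave 9 lower and 0 higher of 17. In the second contrast 8 members of that list were higher and 1 lower, with a median of 0.26. AGR3, a disulfide isomerase gene, fell by 1.47 in vehicle. AZGP1, a secreted glycoprotein gene, was at 2.3 and 3.51 CPM against 13.8 and 10.4 CPM. It was the only member lower in the second contrast as well, by 2.09.

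Among integrin and matrix genes 12 rose and 9 fell of 60. The heparan sulfate proteoglycan gene SDC2 rose by 1.24 ± 0.079 and the fibronectin gene FN1 by 0.96 ± 0.14, while COL12A1, a collagen gene, fell by 1.33 and THBS1, the thrombospondin 1 gene, by 0.84. The lists in this paragraph stand beside 10.9% higher and 12.5% lower of all protein-coding genes. Ion channel genes gave 11 higher and 9 lower of 78. TRPM8, the cold and menthol receptor, was at 34.8 and 34.9 CPM in starved cells and at 6.52 and 6.72 CPM in complete medium (adjusted p = 2.8e-10, edgeR), and it was higher in the second contrast by 1.63 on the log2 scale. The potassium channel gene KCNC1 rose by 2.11, and KCNK5 and KCNQ5 fell by 2.37 and 1.30. In axon guidance the semaphorin gene SEMA3C fell by 1.28 and the netrin gene NTN4 rose by 1.57, within 9 higher and 8 lower of 65. Chromatin regulator genes gave 9 higher and 14 lower of 65, with the Polycomb enzyme EZH2 at -0.42 and the histone deacetylase gene HDAC9 at 1.42. RNA polymerase II pausing and elongation genes gave 2 higher and 2 lower of 50.

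The gene that rose most among those with at least 50 mean counts was LINC01845, a long non-coding RNA (ENSG00000253298, chromosome 5, 159448556 to 159466276), at 44.3 and 45.3 CPM in starved cells and at 1.59 and 1.02 CPM in complete medium. Its log2 fold change was 5.04 ± 0.22 (adjusted p = 1.6e-12), and in the second contrast 3.30, with 20.7 and 23.7 CPM with estradiol and 1.44 to 2.98 CPM with the drugs. Of the other genes that rose most, MYO3B, a myosin gene, and FLRT3, an adhesion gene, changed by 2.03 and 1.98. WT1, the Wilms tumor transcription factor gene, was at 3.25 and 5.12 CPM in starved cells and at 32.3 and 26.1 CPM in complete medium, which is a log2 fold change of -2.82 ± 0.18. It was lower by 2.42 in the second contrast, at 4.51 and 3.83 CPM with estradiol and 20.1 to 23.9 CPM with the drugs. The antisense gene WT1-AS changed by -2.51 and -1.90. The RefSeq spans of both genes overlap over a short stretch at their starts.

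Called genes also lay side by side on chromosomes. Over the 18494 tested genes with a RefSeq position there were 28 runs of 4 or more neighbours called in the same direction, 15 higher and 13 lower, with 131 genes in all. Overlapping genes can share reads, and the longest run, 10 PCDHA genes on chromosome 5, is made of genes that share exons. On chromosome 11, from 1732406 to 1841678, IFITM10, CTSD, PRADX, SYT8 and TNNI2 were lower, with a median of -1.33, and none of the 5 was lower in the second contrast. CTSD, the gene of the lysosomal protease cathepsin D, was at 56.7 and 54.5 CPM against 153 and 118 CPM, and IFITM10, a membrane protein gene, at 125 and 88.6 CPM against 385 and 273 CPM. On chromosome 1, from 64470129 to 65067746, CACHD1, RAVER2, JAK1, LINC01359 and SLC2A3P2 were lower, with a median of -1.39, where 3 of the neighbouring pairs overlap.

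On chromosome 12, from 10158301 to 10398506, a run of 5 genes was higher in both contrasts, with medians of 1.18 and 0.85. It held OLR1, a scavenger receptor gene, TMEM52B, the autophagy gene GABARAPL1, the lectin receptor gene KLRD1 and KLRK1-AS1. OLR1 was at 17.9 and 16.2 CPM in starved cells against 4.93 and 7.74 CPM, and KLRD1 at 8.53 and 7.75 CPM against 2.7 and 2.44 CPM. On chromosome 19, from 6729914 to 6857361, GPR108, TRIP10, SH2D3A and VAV1 were higher in both contrasts, with medians of 0.84 and 0.48. VAV1, a guanine nucleotide exchange factor gene, was at 97.2 and 93.4 CPM against 50.3 and 52.3 CPM. On chromosome 6, ESR1 closed a run of lower genes with ZBTB2, RMND1, HSPA8P15 and CCDC170, with a median of -0.55, of which 3 were lower in the second contrast.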

How the data were processed

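PRO-seq libraries were assigned to groups by the numbers 3 and 4 of their descriptions. Starvation was read from group names and the series design text. The deposited values are raw counts by Ensembl gene ID. The tools named in the submitters' processing notes are SAMtools 1.9, Bowtie2 2.4.4 and cutadapt 1.8.1, and the build is hg38. Which program counted reads, on which annotation, strand and part of a gene, is not stated in the sources used here, so overlapping and antisense genes are uncertain, and promoter-proximal and gene-body polymerase were not separated.

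Of 60605 IDs, 60463 had a symbol. Of IDs sharing a symbol the one with the highest total was kept, leaving 59410 genes. In R 4.3.3, edgeR 4.0.16 filtered genes (filterByExpr), scaled libraries (TMM) and fitted a quasi-likelihood model with 6 groups to all 12 libraries, with 6 residual degrees of freedom. P-values were Benjamini-Hochberg adjusted over 23375 genes, with a threshold of 0.05. Levels are TMM-scaled CPM, so they are relative and hide a shift common to most genes. The 2 libraries of each group differed somewhat more than sampling noise would give, though no p-value was computed. The chi-square sum per gene was 1.2 in starved vehicle, 1.32 in complete vehicle and 1.59 to 2.36 in the other groups. The fit was tested on simulated data with the same spread for all genes. Only changes of at least 2-fold were planted there, so smaller ones were not covered.

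The members and the 61 gene lists were chosen with earlier results of these data known. Some members are not reported here. Lists are described by counts and medians, with no set test. Named genes were the 15 that rose and the 15 that fell most among called genes whose media did not overlap and whose mean reached 50 counts, the first 3 and up to 6 others of each list by adjusted p, members of described runs, and a few estrogen genes. Alternatives covered scaling, filters, DESeq2 1.42.0, the block, the libraries fitted and each library left out. Their count of named genes leaves out genes named only as members of runs, and others such as RERG and TMEM97. Gene positions, promoters and printed sequences came from RefSeq, GRCh38.p14, matched by symbol.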

Additional observations from a re-analysis of the deposited data

How the results depend on the processing

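No gene called in vehicle was called in the opposite direction under any alternative run, which was not examined gene by gene for the second contrast. The vehicle comparison called 4386 genes, and between 4223 and 4397 under other scalings and filters. The balance of directions did turn: 48.5% of its calls were higher, and 53.6% without TMM, 52.7% with upper-quartile scaling and 54.9% with no filter. For the second contrast the share was 51.7%, and 45.2%, 48.6% and 61.1% under the same settings. DESeq2 called 2379 (1080 higher, 1299 lower), all of them among the 4386 in the same direction, and 3246 in the second contrast. With DESeq2, 650 genes were lower and 587 higher in both contrasts, 20 ribosome biogenesis genes were lower, and 10 cholesterol, 7 immediate-early, 1 interferon and 11 keratin and junction genes were higher. Fitting the 4 vehicle libraries alone called 5674. Leaving out 1 vehicle library gave 2555 to 2875 calls, and the single library left in a group is then assumed to vary like the other groups. The numbers 3 and 4 are shared by all groups but nothing in the labels says that they pair libraries. Deviations from the group means correlated across genes at r = 0.064 between starved and complete vehicle, and at 0.04 to 0.375 over the 15 pairs of groups, 9 of them over 0.1, with the 3 highest among the drug groups. With the number as a replicate block 5687 genes were called, 2760 higher and 2927 lower, and 7091 in the second contrast.

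Leaving out 1 library at a time gave 3443 to 5877 calls in the second contrast and 707 to 1162 genes lower in both contrasts. It gave 34 to 49 lower ribosomal protein genes and 19 to 23 lower ribosome biogenesis genes. It gave 9 to 14 higher cholesterol genes, 8 to 11 immediate-early genes, 1 to 4 interferon genes and 11 to 13 keratin and junction genes. Of the 358 named genes called in vehicle, 53 of the 353 that DESeq2 gave a value for lost the call there, and 224 of 1432 gene and left-out-library pairs did. The causes were not tested. At unadjusted p under 0.05 there were 6873 genes in vehicle.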

Other observations

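Some genes outside the lists were called in the same direction in both contrasts. They were picked for that after their values were seen, so their direction is fixed by the choice and is a description only. The choice took protein-coding genes ranked by the smaller of their 2 log2 fold changes, from 944 genes lower and 804 higher in both with at least 50 mean counts. GRIK4, a kainate receptor subunit gene, was at 169 and 146 CPM in starved vehicle against 795 and 807 CPM in complete vehicle, and changed by -2.34 ± 0.065 and, in the second contrast, -1.49. In the 6 drug-treated libraries GRIK4 ran from 711 to 786 CPM, and with estradiol it was at 280 and 254 CPM. CLSTN2, a calsyntenin gene, was at 41.7 and 43.3 CPM against 146 and 144 CPM and changed by -1.77 and -1.61. PKD1L1, a polycystin family gene, was at 92.1 and 83.2 CPM against 258 and 233 CPM and changed by -1.49 and -1.93. In each of these 3 genes all 4 starved libraries lay below all 8 libraries in complete medium.

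In the other direction RHOBTB1 was at 97.9 and 107 CPM in starved vehicle against 30.4 and 27.3 CPM in complete vehicle, and changed by 1.82 and 1.70. It ran from 20.1 to 29.4 CPM with the drugs and was at 88.3 and 85.5 CPM with estradiol. PAMR1, a secreted peptidase-domain gene, was at 33.2 and 27.8 CPM against 9.86 and 11.6 CPM and changed by 1.52 and 1.54. The 4 starved libraries lay above the 8 others for both genes.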
